A study of Mus musculus with 4 samples.

Results

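The beta-2 integrins of leukocytes, the intracellular proteins that switch them on and a pair of their cellular ligands were followed in bone marrow monocytes of aged and young mice. The genes were taken by symbol from the count tables: the common chain Itgb2, the alpha chains Itgal, Itgam and Itgax, the activators Fermt3 and Tln1, and the ligands Icam1 and Icam2. These are 8 of 31017 symbols, and all 8 entered the test. Monocytes were isolated by flow cytometry from the marrow of C57BL/6 mice, all wild type, and their messenger RNA was sequenced in 4 libraries. In 2 of them the donors were 18 months old (aged), and in the other 2 they were 3 months old (young). All libraries carry atherosclerosis as the disease label, and the labels do not say whether plaques were present in the donors or whether libraries of 1 group came from separate animals. A p-value here is therefore set against library-to-library spread alone, and that spread may be technical.

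Each beta-2 integrin is a pair of the shared beta-2 chain (CD18, from Itgb2) with 1 alpha chain: Itgal gives LFA-1 (CD11a), Itgam gives Mac-1 (CD11b, complement receptor 3), Itgax gives CD11c (complement receptor 4) and Itgad gives CD11d. On resting leukocytes the pair is bent and binds poorly. Chemokine or antigen receptor signals activate the GTPase Rap1, which brings talin (Tln1) and kindlin-3 (Fermt3) to the tail of the beta chain, and the integrin then extends and binds ICAM-1 (Icam1) or ICAM-2 (Icam2). In monocytes these steps are known for crawling on and firm arrest to endothelium, and Mac-1 and CD11c also take up particles coated with complement. Loss of ITGB2 or FERMT3 in people causes leukocyte adhesion deficiency.

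Positions are on GRCm38 (GENCODE M21). Itgal (ENSMUSG00000030830) spans chr7:127296260-127335138, and Itgam (chr7:128062640-128118491), Itgax (chr7:128129547-128150657) and Itgad (chr7:128154376-128223816) follow each other on the same strand of chromosome 7. Itgb2 lies at chr10:77530252-77565708, Fermt3 at chr19:6998958-7019469, Tln1 at chr4:43531519-43562691, Icam1 at chr9:21015985-21028817 and Icam2 at chr11:106377656-106388075. Exons of a readthrough gene, Gm49368 (chr7:128062683-128128160), cover 68.7% of the exon bases of Itgam on the same strand, and Gm49368 is itself a row of the tables. Reads from shared exons may have been given to neither gene, so the level of Itgam may be understated in all libraries. Exons on the opposite strand overlap 11.7% of the exon bases of Icam1 (Gm47079), 3.67% of those of Tln1 (Creb3) and 1.54% of those of Fermt3 (Trpt1).

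The upstream sequence is shown for Icam1 and Itgax, the members that passed the test, and for Itgam, the neighbour of Itgax that did not. RefSeq (GRCm38.p6) gave a promoter entry for 5 of the 8 members. Each line gives the 250 bases before the RefSeq start, 5′ to 3′ on the plus strand, at chr9:21015690-21015939 for Icam1, chr7:128129300-128129549 for Itgax and chr7:128062390-128062639 for Itgam, with motif matches in capitals.
Icam1: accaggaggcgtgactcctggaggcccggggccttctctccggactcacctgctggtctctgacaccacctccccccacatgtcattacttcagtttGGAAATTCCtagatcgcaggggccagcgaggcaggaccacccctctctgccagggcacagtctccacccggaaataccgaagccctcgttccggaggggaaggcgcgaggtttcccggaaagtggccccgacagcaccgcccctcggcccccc
Itgax: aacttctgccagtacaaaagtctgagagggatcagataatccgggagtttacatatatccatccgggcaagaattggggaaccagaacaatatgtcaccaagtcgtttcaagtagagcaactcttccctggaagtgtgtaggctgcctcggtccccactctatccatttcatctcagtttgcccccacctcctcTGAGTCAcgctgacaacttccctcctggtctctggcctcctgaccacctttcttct
Itgam: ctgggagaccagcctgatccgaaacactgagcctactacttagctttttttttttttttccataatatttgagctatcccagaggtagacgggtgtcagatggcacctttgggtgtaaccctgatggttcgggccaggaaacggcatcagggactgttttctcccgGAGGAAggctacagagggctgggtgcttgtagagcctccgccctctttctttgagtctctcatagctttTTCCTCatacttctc
Motifs were searched on both strands and had been chosen after the sequences were seen: the NF-kB (kB) site GGAAATTCC, the AP-1 site TGANTCA, the PU box GAGGAA and the TATA box TATAAA. Icam1 held the kB site, 153 to 145 bases before the start, as do 0.286% of the 32851 promoter entries over the same window. Itgax held an AP-1 site, 56 to 50 bases before the start (6.75% of entries). Itgam held the PU box at 84 to 79 and, on the other strand, at 15 to 10 bases before the start (23.3% of entries have a match). Matches of different motifs did not overlap, and no TATA box (12.4% of entries) lay in these windows. These are matches of letters, not shown binding sites.

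Library totals ranged from 20159129 to 34278754 counts. Of 12035 tested genes 694 passed (346 higher and 348 lower in aged; edgeR, adjusted p under 0.05), and the median log2 change over all tested genes was -0.0044. Several monocyte genes were abundant in every library. Lyz2 stood at 32747 to 35199 CPM (counts per 1e6 of the scaled library total), Ccr2 at 1943 to 2367 CPM and Csf1r at 1384 to 1768 CPM. Cd14 (27.1 to 34.8 CPM) and Fcgr1 (37.0 to 40.4 CPM) were much less abundant. Young replicate 1 was the deepest library, and without it 197 genes passed. The change between the ages differed by transcript length: among genes of at least 20 CPM the median log2 change was 0.039 for longest transcripts of 2 to 4 kb (2690 genes) and -0.17 for those over 8 kb (380 genes).

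Of the 8 genes, Itgax and Icam1 were higher in aged monocytes and none was lower. Those are 2 of 8 members, beside 5.77% of all tested genes (2.87% as higher, 2.89% as lower). With an unadjusted p under 0.05 there were 4 members, all higher, against 21.1% of tested genes in either direction, and DESeq2 and limma-voom each called Itgax and Icam1 as higher and no member as lower. DESeq2 called 5.8% of its tested genes (2.77% as higher) and limma-voom 6.72% (3.27% as higher). The median log2 change of the 8 was 0.12. The aged and young libraries did not overlap for 5 members, all higher in aged, where 51.6% of tested genes did not overlap (25.9% as higher). Without young replicate 1 no member passed in edgeR, where 1.6% of genes did, and without aged replicate 2 Itgax and Tln1 passed, with 5.15% of genes. Itgax and Icam1 both passed without aged replicate 1 (8.45% of genes) and without young replicate 2 (3.7%). They also passed with RLE (5.81%), upper-quartile (5.52%) or library-size scaling (5.27%) and with a filter at 5 CPM (7.27%). Itgb2 joined them with no low-count filter (8.08%) and with a replicate block (15.1%), and Itgax alone passed with GC and length offsets (5.93%).

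**Figure D1:**
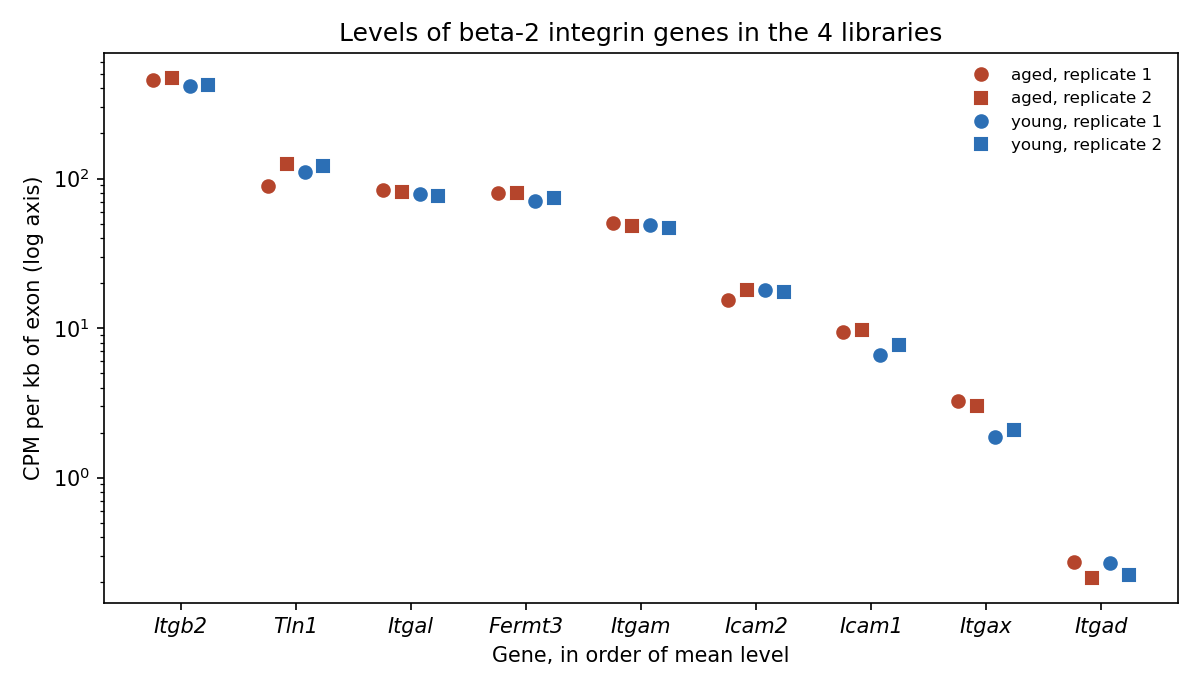
Level of each gene in each library, as CPM per kb of exon on a log axis, with genes ordered by their mean; circles are replicate 1 and squares replicate 2. Itgb2 stood above all others, and Tln1 was lowest in aged replicate 1. The aged points lie above the young ones for Itgb2, Itgal, Itgax, Fermt3 and Icam1.

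The common chain was the most abundant of the set. Itgb2 stood at 1389 and 1435 CPM in aged monocytes, against 1271 and 1284 CPM in the young ones. The aged libraries were both higher, by a small step. The log2 change was 0.14 ± 0.050 (standard error, n = 2 per group; 95% interval 0.034 to 0.25) and did not pass (unadjusted p = 0.0152, edgeR adjusted p = 0.126). Offsets for GC and length gave a change of 0.070 (adjusted p = 0.452). With no low-count filter it passed (adjusted p = 0.0461).

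Of the alpha chains, only Itgax passed. Itgax, the CD11c chain of dendritic cells and of some monocytes and macrophages, stood at 15.6 and 14.4 CPM in the aged libraries (392 and 313 counts) and at 9.0 and 10.03 CPM in the young ones (311 and 200 counts). Both aged libraries lay above both young ones. The rise was 1.59-fold, a log2 change of 0.66 ± 0.14 (95% interval 0.35 to 0.98, edgeR adjusted p = 0.0233). Counting error alone is 5.05% to 7.07% of the count per library. Over 13 alternatives the change ranged from 0.58 to 0.74, and it passed in 12, the exception being without young replicate 1 (adjusted p = 0.196).

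Itgal and Itgam, the chains of LFA-1 and Mac-1, gave small differences. Itgal stood at 549 and 534 CPM in aged against 517 and 501 CPM in young monocytes, so the groups did not overlap. The log2 change was 0.089 ± 0.053 (95% interval -0.028 to 0.21, adjusted p = 0.37). Itgam stood at 254 and 241 CPM in aged against 245 and 233 CPM in young monocytes, and the groups overlapped. The log2 change was 0.047 ± 0.060 (95% interval -0.087 to 0.18, adjusted p = 0.70). A rise of either gene as large as that of Itgax lies outside these intervals, though the difference between the genes was not tested. Itgad, the remaining partner chain and no member of the set, had 31 and 21 counts in aged against 42 and 20 in young libraries (about 1 CPM; log2 change -0.020 ± 0.42).

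The activators did not pass. Fermt3 (kindlin-3, the blood cell kindlin) stood at 461 and 463 CPM in aged against 407 and 429 CPM in young monocytes. The groups did not overlap, and the log2 change was 0.14 ± 0.054 (95% interval 0.024 to 0.27, unadjusted p = 0.0233, edgeR adjusted p = 0.158). Offsets for GC and length gave 0.057.

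Tln1, the talin of blood cells, stood at 869 and 1232 CPM in aged against 1085 and 1186 CPM in young monocytes. The aged libraries were the lowest and the highest of the 4, so the ages overlapped. The log2 change was -0.11 ± 0.12 (95% interval -0.39 to 0.16, adjusted p = 0.655). Its direction rested on the aged library kept: without aged replicate 2 it was -0.39 (adjusted p = 0.00662), and without aged replicate 1 it was 0.12 (adjusted p = 0.287). Of 6603 genes of at least 20 CPM, 0.712% lay as far or farther below aged replicate 2 in aged replicate 1. Some actin-linked genes were also lower in that library than in aged replicate 2. Among them were Was (86.7 against 132 CPM), Actn1 (59.9 against 85.9 CPM) and Vasp (328 against 447 CPM), named after their values were seen. Others were higher there, such as Lcp1 (3551 against 3293 CPM) and Actn4 (274 against 260 CPM). In the actin linkage list 11 of 16 tested genes lay lower in aged replicate 1, with a median log2 difference from aged replicate 2 of -0.12. Over all genes of at least 20 CPM, by class of transcript length, that median ran from -0.021 (up to 2 kb) to 0.067 (over 8 kb, the class of Tln1). The median log2 change between the ages in the class over 8 kb was -0.17, beside the -0.11 of Tln1. Offsets for GC and length gave Tln1 a change of -0.031 (edgeR adjusted p = 0.91). The part of library differences in the value of Tln1 was not tested.

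Of the ligands, Icam1 passed and Icam2 did not. Icam1, an inducible ligand of LFA-1 and Mac-1 that NF-kB is known to switch on, stood at 40.8 and 42.4 CPM in aged against 28.6 and 33.7 CPM in young monocytes. Both aged libraries lay above both young ones, and the young libraries differed more from each other than the aged ones did. The rise was 1.34-fold, a log2 change of 0.42 ± 0.10 (95% interval 0.19 to 0.65, edgeR adjusted p = 0.0436). Over 13 alternatives it ranged from 0.30 to 0.54 and passed in 10. The call was lost without young replicate 1 (adjusted p = 0.343), without aged replicate 2 (0.0954) or after GC and length offsets (0.33, adjusted p = 0.0887).

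Icam2, a constitutive ligand of LFA-1 on endothelium, platelets and leukocytes, stood at 29.4 and 34.0 CPM in aged against 34.0 and 33.2 CPM in young monocytes. Aged replicate 1 was low and the other 3 libraries were alike. The log2 change was -0.085 ± 0.10 (95% interval -0.32 to 0.14, adjusted p = 0.684). Without aged replicate 1 it was 0.018.

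**Figure D2:**
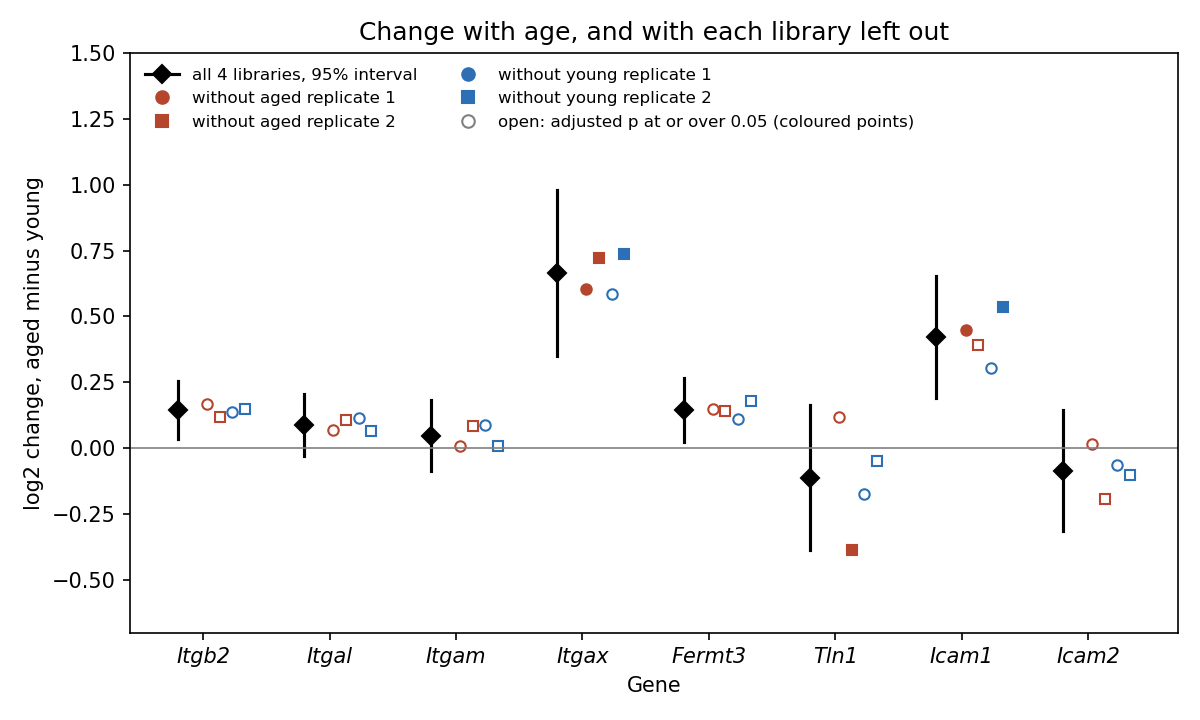
Log2 change of each gene, aged minus young, with its 95% interval over the 4 libraries (black), and with each library left out (coloured; filled where the adjusted p is under 0.05). Itgax stayed between 0.58 and 0.74, Icam1 between 0.30 and 0.54, and Tln1 lay between -0.39 and 0.12.

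Levels between genes were compared per kb of exon, as the mean over the 4 libraries. Itgb2 led with 441 CPM per kb, followed by Tln1 with 112, Itgal with 80.0, Fermt3 with 76.1, Itgam with 48.4, Icam2 with 17.1, Icam1 with 8.34, Itgax with 2.55 and Itgad with 0.245 CPM per kb. The ranges of neighbours over the 4 libraries did not overlap, except those of Itgal (76.3 to 83.5) and Fermt3 (70.4 to 80.1). With the longest transcript as the length, Fermt3 (147 CPM per kb) lay above Tln1 (130) and Itgal (101), so the order of these genes depends on the length used. Scaled to the exon bases it does not share with Gm49368, Itgam would lie above Itgal, since its share of the summed alpha-chain level in aged monocytes moves from 36.4% to 64.7%. The order of Itgal and Itgam is therefore not settled by these tables.

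The common chain exceeded its partners. Per kb, Itgb2 was 3.21 to 3.55 times the sum of the 4 alpha chains in the 4 libraries, and 1.76 to 1.98 times with Itgam scaled to its unshared bases. Itgal made up 61.1% ± 0.490 of the summed alpha-chain level in aged and 60.9% ± 0.242 in young monocytes (SD, n = 2 per group), and the groups overlapped. Itgax made up 2.37% and 2.26% in aged against 1.44% and 1.67% in young libraries. The aged libraries were both higher, by 0.756 percentage points on average (exact two-sided permutation p = 0.33, the smallest that 2 libraries against 2 allow), and by 0.430 points with Itgam scaled to its unshared bases. Itgam took 36.4% ± 0.393 against 37.4% ± 0.382 (exact permutation p = 0.33).

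Against Itgb2 within each library, the log2 ratio of Itgax was -7.13 and -7.29 in aged against -7.80 and -7.65 in young libraries, a difference of 0.51 (exact permutation p = 0.33). The ratios of Itgal and of Itgam to Itgb2 overlapped between the ages, with differences of -0.055 and -0.097. The log2 ratio of Icam1 to Icam2 per kb was -0.72 and -0.88 in aged against -1.44 and -1.17 in young libraries. The aged values were both higher, by 0.51 on average (exact permutation p = 0.33). These ratios do not depend on scaling between libraries.

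**Figure D3:**
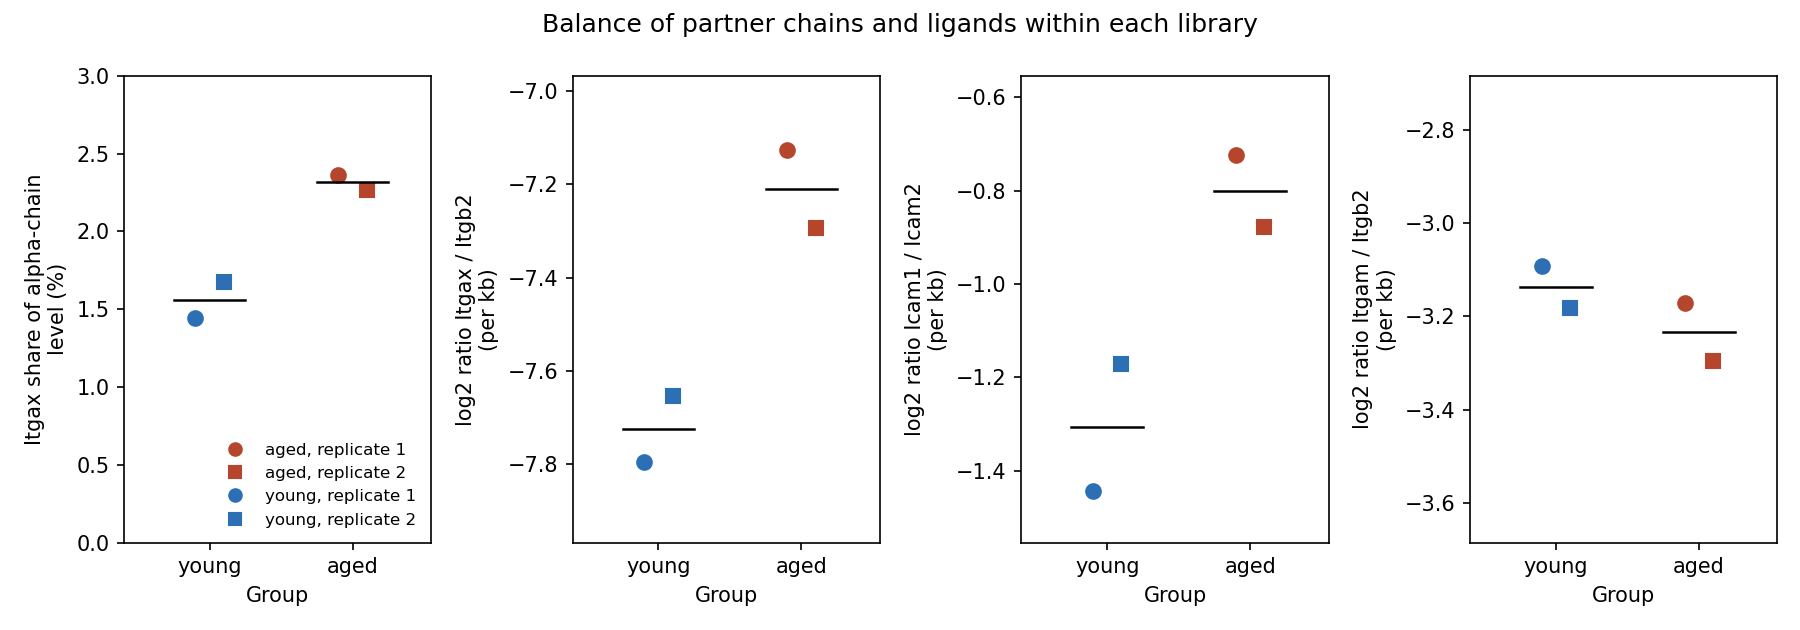
Share of Itgax in the summed level of the 4 alpha chains (percent) and log2 ratios per kb of Itgax to Itgb2, Icam1 to Icam2 and Itgam to Itgb2, by group; points are libraries and bars are means, and the 3 log2 panels span the same height. The aged libraries lie above the young ones in the first 3 panels, and the groups overlap for Itgam to Itgb2.

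Of 14 tested genes that carry the signal to the integrin from inside the cell, 1 was higher and 0 were lower (median -0.021). Over all tested genes 5.77% passed in either direction. With an unadjusted p under 0.05 (edgeR) 2 were higher and 3 lower, beside 21.1% of all tested genes. DESeq2 called 1 higher and 0 lower, and limma-voom 2 and 0. Fyb, an adaptor that links Rap1 signalling to the integrin, rose by 0.34 ± 0.062 (adjusted p = 0.0118), from 151 and 148 CPM in the young to 194 and 184 CPM in the aged libraries. The GTPase genes gave 0.090 ± 0.056 for Rap1a and 0.041 ± 0.050 for Rap1b. Apbb1ip, whose product RIAM brings talin to Rap1, gave -0.22 ± 0.079 (adjusted p = 0.147), and Rasgrp2, the Rap1 exchange factor, -0.21 ± 0.071 (0.118). The other kindlins, Fermt1 and Fermt2, had 0 counts in all or in 3 of the 4 libraries, and Tln2 stayed at 0.479 to 1.06 CPM. A count of 0 allows up to 3 counts, 0.0868 to 0.151 CPM by library.

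Among 9 genes that restrain integrin activation, 1 was higher and 1 lower (median 0.055), beside 2.87% and 2.89% of all tested genes. Sipa1, a Rap1 GTPase-activating protein, rose by 0.22 ± 0.055 (adjusted p = 0.0436). Flna, whose product filamin A competes with talin for the beta tail, fell by 0.29 on the log2 scale (± 0.075, adjusted p = 0.0499). After GC and length offsets neither passed (adjusted p = 0.113 for Sipa1 and 0.172 for Flna). Sipa1 lost its call whichever library was left out, and Flna passed without aged replicate 2 only (adjusted p = 0.00177).

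In the list of actin linkage and focal complexes, 0 of 16 tested genes passed with edgeR, beside 5.77% of all tested genes. The median was 0.017. With an unadjusted p under 0.05 (edgeR) 3 were higher and 2 lower, beside 21.1% of all tested genes in either direction. DESeq2 and limma-voom called 0. The smallest p was that of Wipf1 (-0.22 ± 0.068, adjusted p = 0.0884), and the vinculin gene Vcl gave -0.19 ± 0.073. Ilk, the kinase-like scaffold of these complexes, had 2 to 14 counts and was not tested. Exons of Taf10 on the opposite strand cover 76.8% of its exon bases, so its count may not give its level. Of 14 genes of signalling from the bound integrin 2 rose and 0 fell with edgeR (median 0.064), beside 2.87% and 2.89% of all tested genes. DESeq2 called 2 higher and 0 lower, and limma-voom 4 and 0. At an unadjusted p under 0.05 (edgeR) 5 were higher and 0 lower, beside 21.1% of all tested genes in either direction. The 2 that rose with edgeR were the adaptor Lcp2 (SLP-76, 0.21 ± 0.054, adjusted p = 0.0467) and Plaur, the urokinase receptor that partners Mac-1 (0.25 ± 0.062, adjusted p = 0.0429). The Src-family kinase Fgr gave 0.19 ± 0.052 (0.058) and the kinase Syk -0.027 ± 0.054 (0.82).

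Among other partners and ligands 4 of 12 genes were tested, of which 1 rose and 1 fell, beside 2.87% and 2.89% of all tested genes. F11r, the junctional adhesion molecule that binds LFA-1, was low, at 4.23 and 3.50 CPM in aged against 1.88 and 1.003 CPM in young monocytes (log2 change 1.37 ± 0.34, adjusted p = 0.0436). C3, the source of the complement fragment iC3b that Mac-1 and CD11c bind, stood at 918 and 1029 CPM in aged against 1332 and 1351 CPM in young monocytes (-0.46 ± 0.061, adjusted p = 0.00184), and passed with each library left out. The fibrinogen genes and Icam4 had 0 counts throughout. Of 3 genes for the proteins that tie ICAM tails to actin none passed with edgeR, beside 5.77% of all tested genes. With an unadjusted p under 0.05 (edgeR) there was 1, beside 21.1% of all tested genes. DESeq2 called 0 and limma-voom 1. Ezr gave 0.22 ± 0.058 (adjusted p = 0.0516), Msn 0.065 and Rdx 0.022.

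Of 9 other receptors used in monocyte arrest 0 rose and 1 fell (median -0.12), beside 2.87% and 2.89% of all tested genes. The gene that fell was Itga4, the alpha chain of VLA-4 (-0.57 ± 0.11, adjusted p = 0.0128). Its call was lost when young replicate 1 was left out. Without that library few genes of the whole table passed. The absence of calls in the lists of inside-out activation, restraint, actin linkage, outside-in signalling, ICAM tail partners and adhesion receptors is therefore not particular to them. Lcp2 and F11r lost their calls whichever library was left out. After GC and length offsets Lcp2 (adjusted p = 0.0702), Plaur (0.083) and F11r (0.050041) also missed the threshold, while Fyb (0.0264), C3 (0.00161) and Itga4 (0.0215) passed. Plaur passed without aged replicate 1 only (0.0161), and Fyb did not pass without young replicate 2 either (0.0571).

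**Figure D4:**
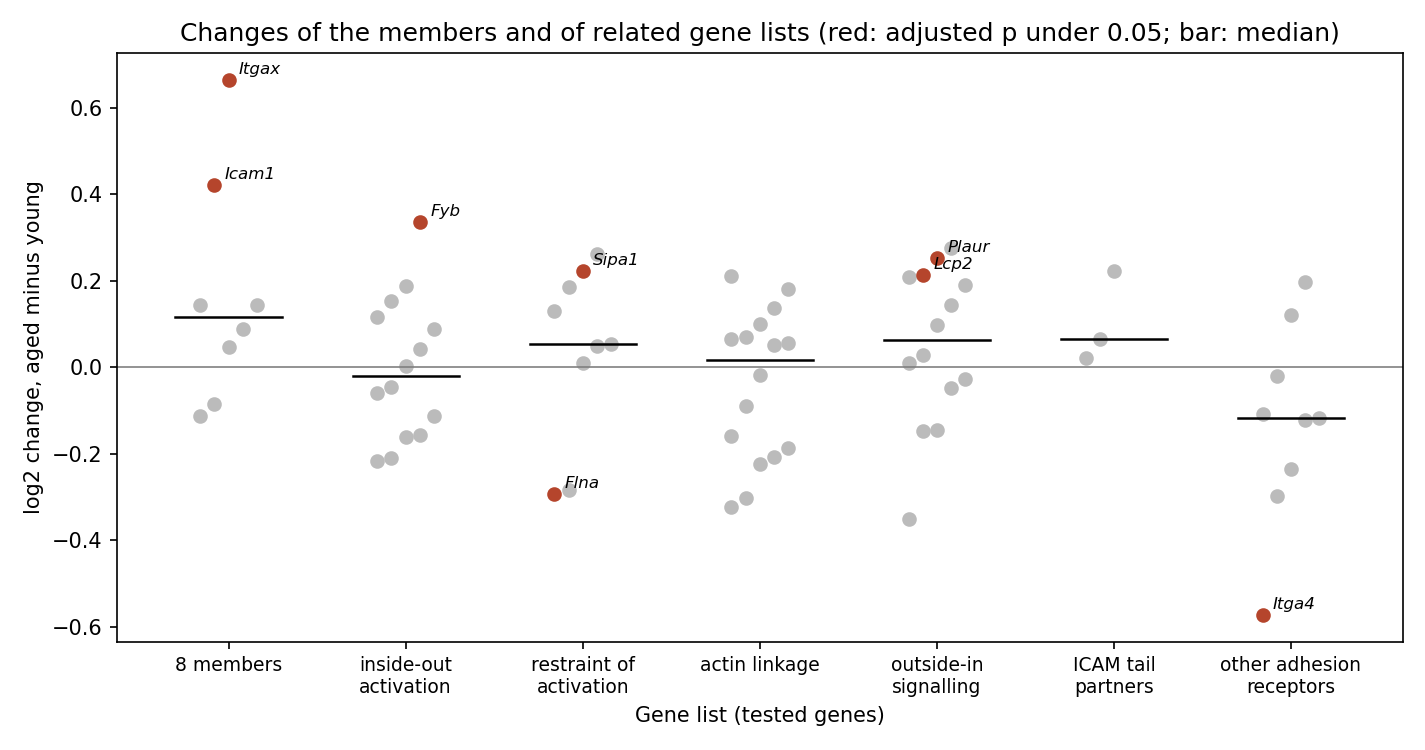
Log2 change, aged minus young, of every tested gene among the 8 members and in 6 lists of related genes; red points passed (adjusted p under 0.05), and bars are list medians. The list of other partners and ligands, with 4 tested genes, is not drawn. The medians lie between -0.12 and 0.12, and of the points drawn Itgax is the highest and Itga4 the lowest.

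Markers of a monocyte subset and of other cell types were read beside Itgax and Icam1. Over all tested genes 2.87% passed as higher and 2.89% as lower. The markers of T and NK cells, of erythroid cells and of endothelium and platelets held no gene past the threshold. In bulk RNA, fewer cells of a type and less RNA per cell cannot be told apart. Of 11 markers of non-classical monocytes, a subset known for high LFA-1 and CD11c, 9 rose, none fell and none was at 0, and their sum was 1246 to 1377 CPM in the aged and 813 to 872 CPM in the young libraries. The most abundant were Cx3cr1 (605 and 393 CPM in aged, 442 and 356 CPM in young) and Adgre4 (241 and 234 against 127 and 125 CPM). Cx3cr1 did not pass (log2 change 0.32 ± 0.16, edgeR adjusted p = 0.283), while Adgre4 did (0.92 ± 0.060, adjusted p = 8.85e-06). Treml4 went from 22.4 and 22.2 CPM in young to 55.6 and 54.3 CPM in aged. Its log2 change was 1.30 ± 0.090, larger than that of Itgax, while Spn gave -0.24 ± 0.12 and did not pass. Of 9 dendritic cell markers 3 rose and 6 did not pass. Those that rose were Flt3 (0.47 ± 0.095, edgeR adjusted p = 0.0183), Spib (0.81 ± 0.15, 0.0116) and Clec10a (0.37 ± 0.093, 0.0437). No marker of the 9 was at 0, and their sums were 299 to 313 CPM in aged and 259 to 262 CPM in young. The most abundant were Cd209a (138 and 140 CPM in aged, 125 and 131 CPM in young) and Tcf4, and the defining markers of the type 1 subset were low, with Xcr1 at 0.239 to 0.652 CPM and Clec9a at 1.254 to 2.69 CPM.

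Of 8 B cell markers 7 were tested and 5 rose, with none at 0 and sums of 1074 to 1079 CPM against 718 to 726 CPM, led by Ighm and Igkc. Of 10 neutrophil markers 2 rose and 3 fell, with none at 0 and sums of 16698 to 16960 CPM in aged and 14199 to 14272 CPM in young. Ltf (2299 and 2305 CPM in aged, 1267 and 1339 CPM in young) and Ngp were those that rose, and Elane, Mpo and Cxcr2 fell. Neutrophils also carry LFA-1 and Mac-1. The part of neutrophil RNA in the values of Itgb2, Itgal and Itgam was not tested. The most abundant were Ngp (5066 and 4851 CPM in aged, 3145 and 3076 CPM in young) and Retnlg (3884 and 3737 against 3857 and 3617 CPM), while the defining Ly6g stood at 125 and 123 against 148 and 131 CPM. Of 8 macrophage markers 2 rose (C1qb and C1qc), with sums of 460 to 492 CPM in aged and 489 to 510 CPM in young. The most abundant, Slc40a1 (-0.30 ± 0.077, edgeR adjusted p = 0.0501) and Adgre1 (-0.050 ± 0.059, 0.676), did not pass. T and NK cell markers summed to 46.0 to 56.0 CPM, and erythroid markers to 263 to 289 CPM. Endothelial and platelet markers, whose cells carry ICAM-2, summed to 4.23 and 4.65 CPM in aged against 2.52 and 2.31 CPM in young libraries. Of 4 tested, 3 were higher at an unadjusted p under 0.05 (edgeR), beside 21.1% of all tested genes in either direction, and none passed. These 3 rest on few counts per library: 2 to 12 for Kdr, 8 to 27 for Pf4 and 6 to 26 for Ppbp. The endothelial Cldn5 was at 0 in all libraries and Tek and Emcn at 0 in 3.

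Early response genes, which also rise during cell handling, were higher in 8 of 9 cases, with sums of 3102 to 3212 CPM in aged and 1417 to 1456 CPM in young. Of 10 NF-kB targets and feedback genes 4 rose (Nfkb2, Tnfaip3, Cxcl2 and Ccl3), with a median of 0.35, beside the 0.42 of Icam1. Nfkbia stood at 148 and 169 CPM in aged against 158 and 155 CPM in young monocytes. Of 10 monocyte identity markers 3 rose (Csf1r, Spi1 and Cd68) and 2 fell (Ly6c2 and Mpeg1), with a median of 0.19. Csf1r gave 0.33 ± 0.049 (edgeR adjusted p = 0.00429) and Ly6c2 -0.42 ± 0.052 (0.00118). Without young replicate 1 few genes of the whole table passed. Calls remained among markers of non-classical monocytes, B cells, neutrophils and macrophages, but not among those of dendritic cells. They also remained among monocyte identity, early response and NF-kB genes. The part of these gene groups in the changes of Itgax and Icam1 was not tested.

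The genes nearest to the set in pattern were sought among 9186 genes of at least 5 CPM, by the distance between centred log2 CPM over the 4 libraries. Nearest to Itgb2 were Ifngr2, Ubap2 and Ift52 (distances of 0.012 to 0.013), none of which passed (adjusted p = 0.14 to 0.376). Nearest to Itgax were Smpdl3b (distance 0.060; 23.2 and 21.6 CPM in aged, 13.8 and 14.5 CPM in young, adjusted p = 0.00945), Pcbp3 and Aig1. Nearest to Icam1 were Cdk11b (distance 0.029, adjusted p = 0.0195), Rassf1 and Zfyve21. Pcbp3, Aig1, Rassf1 and Zfyve21 did not pass (edgeR adjusted p = 0.0689, 0.109, 0.0721 and 0.0833). With 4 libraries such a likeness is a description of these libraries only.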

How the data were processed

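Each library has 1 deposited table of raw counts by gene symbol; the values are whole and carry no normalization by the authors. Without giving roles, the submitters' processing notes list HTSeq, STAR 2.5.3, cutadapt and DESeq2, and mm10 as the build. Annotation and strand setting: not given in the sources used here. Per the labels' protocols the libraries were oligo-dT selected and stranded by dUTP. Genes were kept with filterByExpr (minimum count 10, minimum total 15), scaled by TMM and tested two-sided with edgeR's quasi-likelihood F-test, adjusted by Benjamini-Hochberg over all 12035 genes at 0.05 and checked on simulated data. CPM use TMM-scaled totals; the standard error is the log2 change over the square root of F, and 95% intervals use the fit's degrees of freedom. Lengths are GENCODE M21 exon unions. Members, lists and the naming rule were chosen with earlier results of these data known. The rule named all 8 members and, from each pathway list, up to 4 genes a direction past the threshold, or its smallest p. It also named the most abundant markers of some cell types and the 3 nearest genes in pattern. Other genes were named outside this rule, with earlier results known. Among these were Rap1a, Rap1b, Apbb1ip, Rasgrp2, Fgr, Syk, Vcl, Treml4, Spn, Xcr1, Clec9a, Ly6g, C1qb, C1qc and Nfkbia. A gene in each of 2 lists (signalling from the bound integrin, other adhesion receptors) is not reported here and was left out of that list's counts and median. The alternatives tried were scaling by library size, upper quartile or RLE, 2 other filters, DESeq2, limma-voom, a replicate block and each library left out; GC and length offsets (splines, 5 degrees of freedom) and the unshared exons of Itgam were added after seeing the data. Counting errors and floors (3 counts) cover counting error only. Log2 CPM for gene likeness used a prior count of 2. Tools: DESeq2 1.42.0, limma 3.58.1 and edgeR 4.0.16, run in R 4.3.3.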

Additional observations from a re-analysis of the deposited data

How the results depend on the processing

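With no low-count filter 1399 genes passed (606 higher, 793 lower). Replicate numbers are shared by the ages, but nothing in the labels says that they pair the samples; same-numbered deviations correlated at 0.21 across 9194 genes. With the replicate number as a block 1817 genes passed (801 higher, 1016 lower), all 694 of the main test among them, and 3 members: Itgb2 (adjusted p = 0.0476), Itgax and Icam1. With each library left out the genes that passed numbered 197 to 1040, the higher ones 116 to 452 and the lower ones 81 to 588, and the members that passed 0 to 2. With GC content and length offsets 1 member passed (Itgax). The cause of these shifts was not tested. Scaling by RLE, upper quartile or library size and the filter at 5 CPM kept Itgax and Icam1 past the threshold and no other member. Itgal, Itgam, Fermt3 and Icam2 passed under none of the 13 alternatives. With each library left out, the change of Tln1 ran from -0.39 to 0.12 and that of Icam2 from -0.19 to 0.018, both above 0 only without aged replicate 1. The difference in the share of Itgal ran from -0.14 to 0.55 percentage points, below 0 only without aged replicate 2. That of Itgad ran from -0.031 to 0.0063 (above 0 without aged replicate 2, and at 0.0024 without young replicate 1), and the log2 ratio of Itgad to Itgb2 from -0.36 to 0.042 (above 0 without aged replicate 2). Itgad rests on 20 to 42 counts. The share of Itgax rose by 0.430 points with Itgam scaled to unshared exons, since Itgam then takes more of the sum. With each library left out the difference in the log2 ratio of Itgax to Itgb2 ran from 0.43 to 0.60 and that of Icam1 to Icam2 from 0.37 to 0.64. With 2 libraries per group the exact tests cannot pass 0.05.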
